A study of Mus musculus with 18 samples.

Results

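Integrins and laminins were followed in the kidney cortex of mice with lupus nephritis, as every gene row whose symbol is that of an integrin alpha or beta entry or of a laminin chain. The rule took 41 of the 15035 gene rows, and all 41 had a value in each of the 18 libraries, with no filter on low values. They comprise 27 integrin subunits, 11 laminin chains and 3 rows that carry an integrin-like symbol without being subunits (Itgb1bp1, Itgb3bp and Itgbl1). Of the 27 subunits, 9 belong to leukocyte integrins and 18 to integrins of epithelium, matrix-bound cells, vessels and platelets.

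The series compared 6 groups of 3 mice. The controls were wild-type Mrl/Mpj mice, healthy and on vehicle. Mrl/lpr mice, which carry a mutation of Fas and develop a lupus-like nephritis, made up the remaining 15, and they received vehicle, MMF (mycophenolate mofetil, an inhibitor of purine synthesis in lymphocytes), FK506 (tacrolimus, a calcineurin inhibitor), prednisone (a glucocorticoid) or a multi-target treatment. The labels give no dose, age, sex or duration and do not name the drugs of the multi-target arm, and each library is called by its group and mouse number. The healthy mice differ from all others in genotype, so the effects of the strain and of the disease cannot be told apart. Nothing in the labels says whether the tissue of each mouse was handled separately throughout, so p-values measure the spread between these samples.

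Integrins are receptors made of 1 alpha and 1 beta chain that bind cells to matrix or to other cells. Leukocytes carry the Itgb2 chain paired with Itgal, Itgam, Itgax or Itgad, and Itga4 or Itgae paired with Itgb7 (Itga4 also with Itgb1), and use them to stick to and cross vessel walls, to take up particles and to lodge in epithelium. Kidney epithelium, mesangium and vessels hold on to matrix mostly through Itgb1 and the Itgav receptors, and podocytes depend on the Itga3 and Itgb1 pair. Laminins are trimers of an alpha, a beta and a gamma chain that form the sheet of basement membranes, and the mature glomerular basement membrane contains the trimer of Lama5, Lamb2 and Lamc1.

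The values are the log2 expression values that the authors deposited. From the values, libraries held between 28939845 and 41066953 recovered reads (MMF mouse 27 and prednisone mouse 23), and the 41 rows lay between 47 reads (the lowest library of Itgbl1) and 20536 reads (the highest library of Itgb1). Counting error is therefore larger for the low members, such as Itgbl1, Itgb2l and Lamb3, than for the high ones. Proximal tubule markers were abundant in every library (summed log2 level from 16.83 to 18.87) and podocyte markers were present in all (13.84 to 14.87). The mean of the 5 proximal tubule markers was nonetheless lower in the 15 Mrl/lpr mice, at -0.15 to -1.74 relative to the healthy mean, than in the healthy mice, at -0.14 to 0.12, and 1 of the 5 was called lower in vehicle mice. Transcripts of other tissues stood out in 2 libraries. Adipocyte markers averaged 7.19 log2 units above the healthy mean in vehicle mouse 17, where urothelial markers were 4.18 above it, and adrenal markers averaged 6.11 above it in FK506 mouse 12.

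The genes for Itgam, Itgax and Itgad are neighbours on chromosome 7 of GRCm38, on the plus strand. By the GENCODE annotation Itgam spans chr7:128062640-128118491, Itgax chr7:128129547-128150657 and Itgad chr7:128154376-128223816, with Itgal further upstream at chr7:127296260-127335138. Itga4 lies at chr2:79255426-79333123 and Itgb2 at chr10:77530252-77565708. The 250 bases before the RefSeq transcription start (GRCm38.p6) are printed for the first pair of neighbours, which differ in the motif marked, and for Itga4, the leukocyte integrin with the smallest p in diseased kidney. Capitals mark GAGGAA or its reverse complement TTCCTC, the purine-rich core bound by PU.1, a transcription factor of myeloid cells known to act on the Itgam promoter.
Itgam (chr7:128062390-128062639, plus strand): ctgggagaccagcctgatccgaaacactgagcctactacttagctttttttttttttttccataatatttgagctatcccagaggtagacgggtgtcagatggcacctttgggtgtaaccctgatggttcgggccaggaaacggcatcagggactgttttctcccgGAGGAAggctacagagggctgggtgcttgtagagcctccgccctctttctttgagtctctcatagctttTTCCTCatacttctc
Itgax (chr7:128129300-128129549, plus strand): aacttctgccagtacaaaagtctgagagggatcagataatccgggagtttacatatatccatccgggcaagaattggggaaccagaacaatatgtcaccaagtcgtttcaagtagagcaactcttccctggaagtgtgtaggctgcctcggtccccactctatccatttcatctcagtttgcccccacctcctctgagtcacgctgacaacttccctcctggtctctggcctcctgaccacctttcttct
Itga4 (chr2:79255176-79255425, plus strand): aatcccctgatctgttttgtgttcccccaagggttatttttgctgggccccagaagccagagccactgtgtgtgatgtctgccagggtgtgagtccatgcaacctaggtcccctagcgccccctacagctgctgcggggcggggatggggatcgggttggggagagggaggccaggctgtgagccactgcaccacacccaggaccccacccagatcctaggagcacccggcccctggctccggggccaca
The Itgam window held 2 matches, 1 on each strand, and the Itgax and Itga4 windows held 0. Over the RefSeq promoters available for 27 of the 41 members, the motif stood in 2 of 5 windows of leukocyte integrins (40.0%) and in 12 of 25 windows of the other members (48.0%), against 7639 of 32851 promoters of the genome (23.3%). A match only says that these letters occur there.

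In healthy cortex, per length of gene and scaled to library size, Itgb1 was the highest of the 41 members at 69.6 ± 3.0 RPKM-like units (reads per kilobase of exon, scaled by recovered library size; SD, n = 3), followed by Itgb5 at 35.3, Itga6 at 21.5, Itgav at 20.1 and Lamb1 at 18.8. Itgb2, the common beta chain of leukocyte integrins, stood far lower on this scale, at 1.54 ± 0.23 and rank 27. In vehicle-treated Mrl/lpr cortex Itgb2 was at 17.5 ± 5.0 on the same scale and rank 7, above Itga3 and Lamb2. Lamb3 was the lowest member in healthy cortex, at 0.259, but its value is a mean of 2 rows, which lowers its level per length. The values of Itgb5 and Itga6 could not be resolved into whole reads, so their places in this order are less certain.

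Kidneys of vehicle-treated Mrl/lpr mice had far more leukocyte integrin RNA than healthy kidneys. Of the 9 leukocyte integrins 8 rose, with a median log2 difference of 1.70 over the 9, against 0.09 over all rows tested. Over all 41 members 13 rose and 2 fell (limma, Benjamini-Hochberg adjusted p under 0.05 over all rows), while 22.4% of all rows were called, 15.7% higher and 6.76% lower. With quantile normalization of the libraries, 7 members rose and 2 fell, the share of higher rows among all calls went from 69.8% to 43.7% and the median of all rows from 0.09 to -0.07. Without regard to the test, the vehicle and healthy mice did not overlap for 22 members that lay higher and 2 that lay lower, against 32.6% and 19.8% of all rows. Leaving out vehicle mouse 36 left 6 called members, and leaving out healthy mouse 1, 2 or 3 left 7, 7 or 8. In these bulk samples more cells of a type and more RNA per cell cannot be told apart.

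Itgb2, the beta chain shared by the leukocyte-specific adhesion receptors, had log2 values of 7.38, 7.83 and 7.68 in healthy mice and of 10.53, 11.30 and 11.31 in vehicle mice 7, 17 and 36. Every vehicle mouse was above every healthy mouse by a wide margin. The log2 difference was 3.42 ± 0.43 (SE, 3 against 3 mice), a 10.7-fold rise (limma adjusted p = 0.00011). Itgam, the alpha chain of the complement receptor Mac-1 on neutrophils and macrophages, was at 8.72, 8.71 and 8.90 in healthy mice and at 10.48, 10.95 and 11.04 in vehicle mice. The groups were again apart, with a log2 difference of 2.05 ± 0.35 (limma adjusted p = 0.00106). Itgb7, the partner of Itga4 and Itgae on lymphocytes of the gut wall and elsewhere, was at 6.55, 6.75 and 6.86 in healthy mice and at 8.28, 9.04 and 8.87 in vehicle mice. It rose by 2.01 ± 0.37 on the log2 scale (limma adjusted p = 0.00187).

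Itgal, the alpha chain of LFA-1 on lymphocytes, was between 8.61 and 8.85 in healthy mice and between 9.99 and 10.74 in vehicle mice, a rise of 1.70 ± 0.21 (limma adjusted p = 9.71e-05). Itga4, the alpha chain that binds Vcam1, lay between 9.21 and 9.34 in healthy mice and between 10.38 and 10.92 in vehicle mice. Its rise of 1.46 ± 0.15 had the smallest p of the 41 members (limma adjusted p = 1.69e-05). Itgax, the CD11c chain of dendritic cells and macrophages, rose by 1.96 ± 0.48 (limma adjusted p = 0.0104), with vehicle values of 8.86, 9.32 and 10.14. The smallest rises were those of Itgae, which marks lymphocytes in epithelium (0.85 ± 0.26, limma adjusted p = 0.0295), and of Itgad (0.46 ± 0.15, limma adjusted p = 0.0363). Itgb2l, a mouse paralog of Itgb2, differed by 0.20 and did not pass (limma adjusted p = 0.473).

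The calls of Itgb2, Itgam, Itgal and Itga4 stood in each of 11 alternative fits and that of Itgb7 in each of 10. Itgax lost its call in 1 of 11, without vehicle mouse 36 (1.61, limma adjusted p = 0.063). Itgad and Itgae lost theirs in 7 and 6 of 10, both of them without vehicle mouse 36 or any of the 3 healthy mice, and Itgad also without vehicle mouse 7. With quantile normalization Itgad and Itgae differed by 0.19 and 0.57 (limma adjusted p = 0.369 and 0.0935). How the authors divided reads between near-identical stretches of related genes is not stated.

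**Figure D1:**
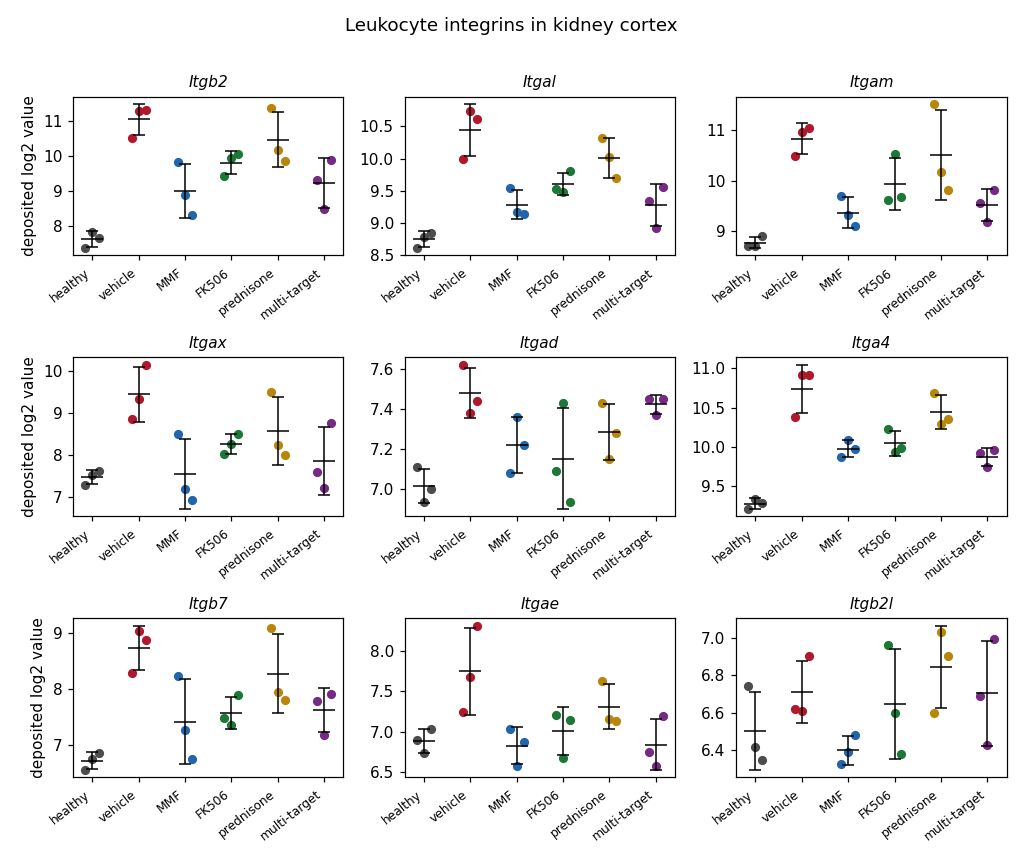
Deposited log2 values (y axis) of the 9 leukocyte integrins in each mouse (points), by group (x axis), with the mean (long bar) and SD (whiskers, n = 3). Itgb2 runs from 7.38 to 7.83 in healthy mice and from 10.53 to 11.31 in vehicle mice, and the treated groups lie between, apart from prednisone mouse 23 at 11.36.

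Markers of leukocytes moved with these integrins. All 4 pan-leukocyte markers rose, by 2.45 (Ptprc) to 3.42 (Cd53) on the log2 scale, and their summed log2 level ran from 10.27 to 10.64 in healthy mice and from 12.86 to 13.77 in vehicle mice. Called higher were 5 of 6 measured macrophage markers, 6 of 7 T cell markers, 3 of 4 measured B and plasma cell markers and 2 of 4 measured neutrophil markers. Their part in the rise of the integrins was not tested. As a description chosen after the data were seen, each integrin was also expressed relative to Ptprc, the CD45 antigen of all leukocytes. Itgb2 stood at -1.53 relative to Ptprc on average in healthy mice and at -0.56 in vehicle mice, 0.97 higher. The other 8 stood lower relative to Ptprc in vehicle mice, from -0.40 for Itgam to -2.25 for Itgb2l, with -0.75 for Itgal and -0.99 for Itga4. Ptprc itself rose by 2.45, so any gene that rose less, or did not change, stands lower relative to it by construction. Ptprc also rose least of the 4 pan-leukocyte markers, and Cd53 rose by 3.42, the same as Itgb2. The place of Itgb2 therefore depends on the marker it is set against. For 8 of the 9 ratios, Itgb2 included, the groups did not overlap, and their 2-sided exact permutation p was 0.1, the smallest that 3 against 3 mice allow (adjusted over the 9, p = 0.112). Itgax overlapped (exact permutation p = 0.2).

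**Figure D2:**
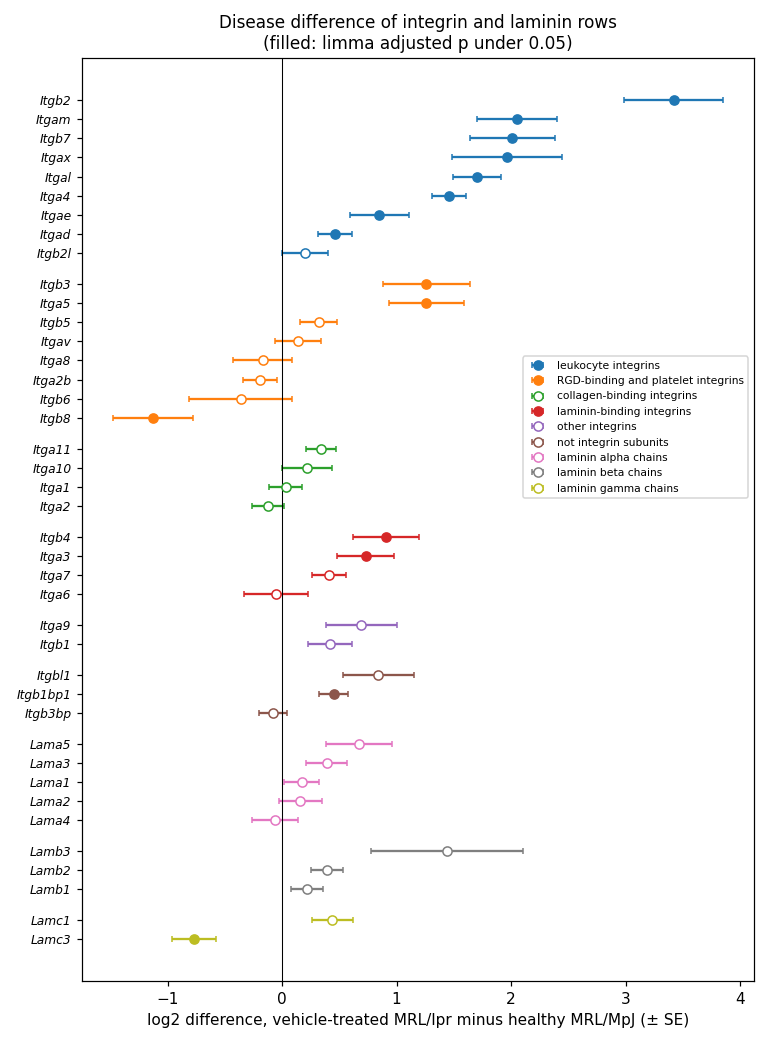
Log2 difference between vehicle-treated Mrl/lpr and healthy Mrl/Mpj mice (x axis, points with SE whiskers) for 40 of the 41 members (y axis), coloured by role, with filled points for limma adjusted p under 0.05. The leukocyte integrins reach from 0.20 to 3.42, whereas the other integrins lie between -1.13 and 1.26 and the laminins between -0.77 and 1.44.

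The 18 other integrins did not move as a block. In diseased cortex 4 rose (Itgb3, Itga5, Itgb4 and Itga3) and 1 fell (Itgb8), where 15.7% of all rows rose and 6.76% fell. The median log2 difference of the 18 was 0.27, against 0.09 over all rows. Among integrins that bind fibronectin, vitronectin and other RGD ligands, 2 of 8 rose and 1 fell, to be read against the same shares. Itga5, the fibronectin receptor chain, was at 9.01, 8.69 and 8.88 in healthy mice and at 9.49, 9.82 and 11.06 in vehicle mice. Vehicle mouse 36 stood above the other vehicle mice. The log2 difference was 1.26 ± 0.33 (limma adjusted p = 0.016), and 0.79 without vehicle mouse 36 (limma adjusted p = 0.0778).

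Itgb3, which pairs with Itgav on vessels, mesangium and macrophages and with Itga2b on platelets, was at 6.73, 6.68 and 6.59 in healthy mice and at 7.11, 7.69 and 8.99 in vehicle mice. Vehicle mouse 36 was again the highest. The log2 difference of 1.26 ± 0.38 passed (limma adjusted p = 0.0274), and was 0.74 without that mouse (limma adjusted p = 0.142). Its platelet partner Itga2b differed by -0.19 (limma adjusted p = 0.364). Itgav itself differed by 0.14 (limma adjusted p = 0.634), and by -0.15 without vehicle mouse 36.

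Itgb8, which with Itgav frees latent TGF-beta, went the other way. Its log2 values were 12.21, 11.99 and 11.81 in healthy mice and 11.08, 11.04 and 10.51 in vehicle mice. All vehicle mice were below all healthy mice, with a difference of -1.13 ± 0.35 (limma adjusted p = 0.0342). Without vehicle mouse 36 it was -0.95 (limma adjusted p = 0.155). Proximal tubule markers averaged -0.69, -0.50 and -1.74 relative to the healthy mean in vehicle mice 7, 17 and 36, and their part in the fall of Itgb8 was not tested. The remaining Itgav partners, Itgb5 and Itgb6, differed by 0.32 and -0.36 and did not pass (limma adjusted p = 0.154 and 0.591).

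Laminin-binding integrins rose in 2 of 4 cases, where 15.7% of all rows rose. Itgb4, the chain of the hemidesmosome receptor, was at 8.76, 8.69 and 8.75 in healthy mice and at 9.0, 9.52 and 10.42 in vehicle mice. It was higher in every vehicle mouse, with a log2 difference of 0.91 ± 0.29 (limma adjusted p = 0.0367). Itga3, the podocyte and tubule laminin receptor chain, was at 10.97, 11.05 and 10.93 in healthy mice and at 11.35, 11.36 and 12.43 in vehicle mice. It rose by 0.73 ± 0.25 (limma adjusted p = 0.049). Without vehicle mouse 36 the differences were 0.53 for Itgb4 and 0.37 for Itga3, and neither passed (limma adjusted p = 0.203 and 0.262). Itga7, of muscle, differed by 0.41 (limma adjusted p = 0.0595) and Itga6 by -0.05 (limma adjusted p = 0.911).

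Itgb1, the common beta chain and the most abundant member, was at 13.60, 13.48 and 13.58 in healthy mice and at 13.75, 13.69 and 14.49 in vehicle mice. Mice 7 and 17 lay just above the healthy range and mouse 36 well above it, and the difference of 0.42 did not pass (limma adjusted p = 0.118), and was 0.16 without vehicle mouse 36. Of the 4 collagen-binding chains none passed: Itga11, of fibroblasts, differed by 0.34 (limma adjusted p = 0.0777), Itga10 by 0.22, Itga1 by 0.03 and Itga2 by -0.12. Itga9 differed by 0.69 (limma adjusted p = 0.116). Itgb1bp1, a cytoplasmic binder of the Itgb1 tail, was at 9.67, 9.61 and 9.68 in healthy mice and at 10.15, 9.92 and 10.25 in vehicle mice, a rise of 0.45 ± 0.13 (limma adjusted p = 0.0249). Leaving out any 1 of the 3 healthy mice also ended the calls of Itgb3, Itgb8, Itgb4, Itga3 and Itgb1bp1, leaving out healthy mouse 2 that of Itga5, vehicle mouse 36 that of Itgb1bp1 and vehicle mouse 17 that of Itgb4. With quantile normalization Itgb3, Itgb4, Itga3 and Itgb1bp1 did not pass (limma adjusted p = 0.0598, 0.084, 0.0762 and 0.145).

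**Figure D3:**
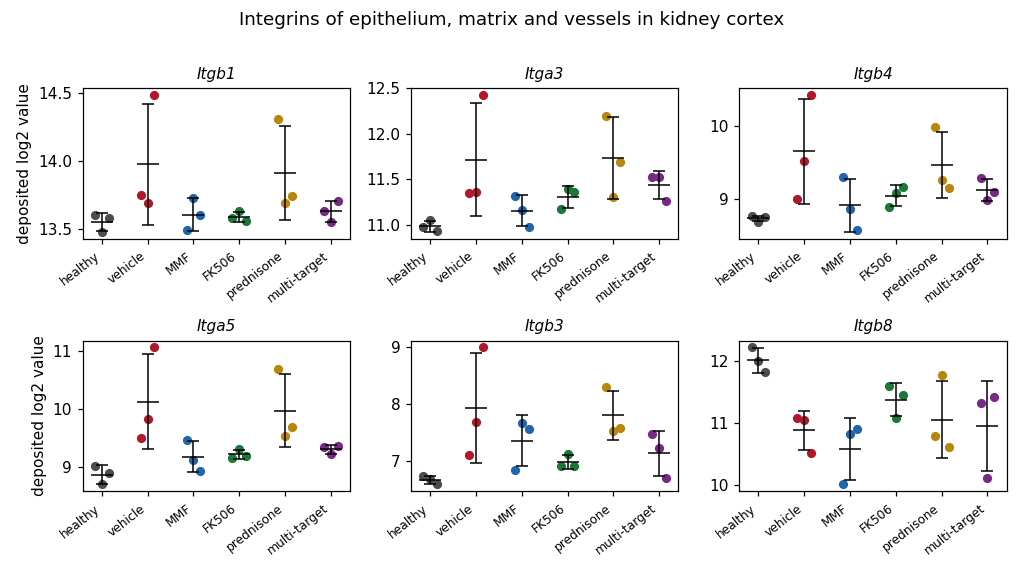
Deposited log2 values (y axis) of 6 integrins of epithelium, matrix and vessels in each mouse (points), by group (x axis), with mean and SD (n = 3). Vehicle mouse 36 (Itga5 at 11.06) and prednisone mouse 23 (Itga5 at 10.69) are the highest libraries in 5 of the 6 panels, and Itgb8 is highest in healthy mice, from 11.81 to 12.21.

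Vehicle mouse 36 and prednisone mouse 23 also had the highest levels of tubular injury markers. In vehicle mouse 36 these averaged 3.53 log2 units above the healthy mean, while mice 7 and 17 of that group had 0.98 and 1.53. In prednisone mouse 23 they averaged 2.76, while prednisone mice 29 and 35 had 0.58 and 0.99. In vehicle mice, 4 of 6 injury markers were called higher, with a summed log2 level of 13.84 to 16.11 against 13.38 to 13.62 in healthy mice. Mesangial and fibroblast markers averaged 2.03 above the healthy mean in vehicle mouse 36 against 0.94 and 1.24 in the other vehicle mice, with 4 of 6 called higher and a summed log2 level of 13.46 to 14.95 against 12.16 to 12.45 in healthy mice. Markers of the loop of Henle and distal tubule averaged -2.16 relative to the healthy mean in vehicle mouse 36 against -0.10 and -0.11 in mice 7 and 17. The part of these markers in the integrin differences was not tested. The 18 integrins other than those of leukocytes averaged 0.58 above the healthy mean in vehicle mouse 36 and 0.45 in prednisone mouse 23, and between -0.25 and 0.20 in the other 13 Mrl/lpr mice.

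Among laminins 1 of 11 chains passed the test in diseased cortex, and it fell, while 22.4% of all rows were called, 15.7% higher and 6.76% lower. This chain was Lamc3, a gamma chain outside the main glomerular trimer, at 9.91, 9.44 and 9.72 in healthy mice and at 8.79, 8.90 and 9.07 in vehicle mice. The groups were apart, with a log2 difference of -0.77 ± 0.19 (limma adjusted p = 0.011). The proximal tubule markers were lower in the same mice, and their part was not tested. Lamc3 lost the call in 1 of 11 alternative fits, without healthy mouse 1 (-0.66, limma adjusted p = 0.058). The 11 chains had a median difference of 0.39, against 0.09 over all rows, and 9 of them lay above 0.

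The chains of the glomerular trimer all lay higher on average in vehicle mice without passing. Lama5, its alpha chain, was at 12.51, 12.41 and 12.39 in healthy mice and at 12.80, 12.81 and 13.71 in vehicle mice. The groups did not overlap, and the difference was 0.67 ± 0.29 (limma adjusted p = 0.106), and 0.37 without vehicle mouse 36. Lamb2, its beta chain, whose loss causes nephrotic syndrome, was at 11.43, 11.25 and 11.24 in healthy mice and at 11.62, 11.71 and 11.79 in vehicle mice. Every vehicle mouse was higher, by 0.39 ± 0.14 on average (limma adjusted p = 0.0611). Lamc1, the common gamma chain, was at 11.37, 11.17 and 11.07 in healthy mice and at 11.30, 11.51 and 12.13 in vehicle mice, which overlapped (0.44, limma adjusted p = 0.0934, and 0.20 without vehicle mouse 36).

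Lamb3, a beta chain of epithelial basement membranes, was uneven among vehicle mice. Lamb3 was at 5.81, 6.26 and 6.41 in healthy mice, at 6.27 and 6.78 in vehicle mice 7 and 17, and at 9.74 in vehicle mouse 36. The difference of 1.44 ± 0.66 did not pass (limma adjusted p = 0.125) and was 0.36 without mouse 36. Prednisone mouse 23, at 8.80, was the next highest of all 18 libraries. Lama3, an alpha chain of epithelium, was highest in vehicle mouse 17, at 11.67, the library with urothelial transcripts, against 10.98 in mouse 36. The part of those transcripts in the Lama3 value was not tested.

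**Figure D4:**
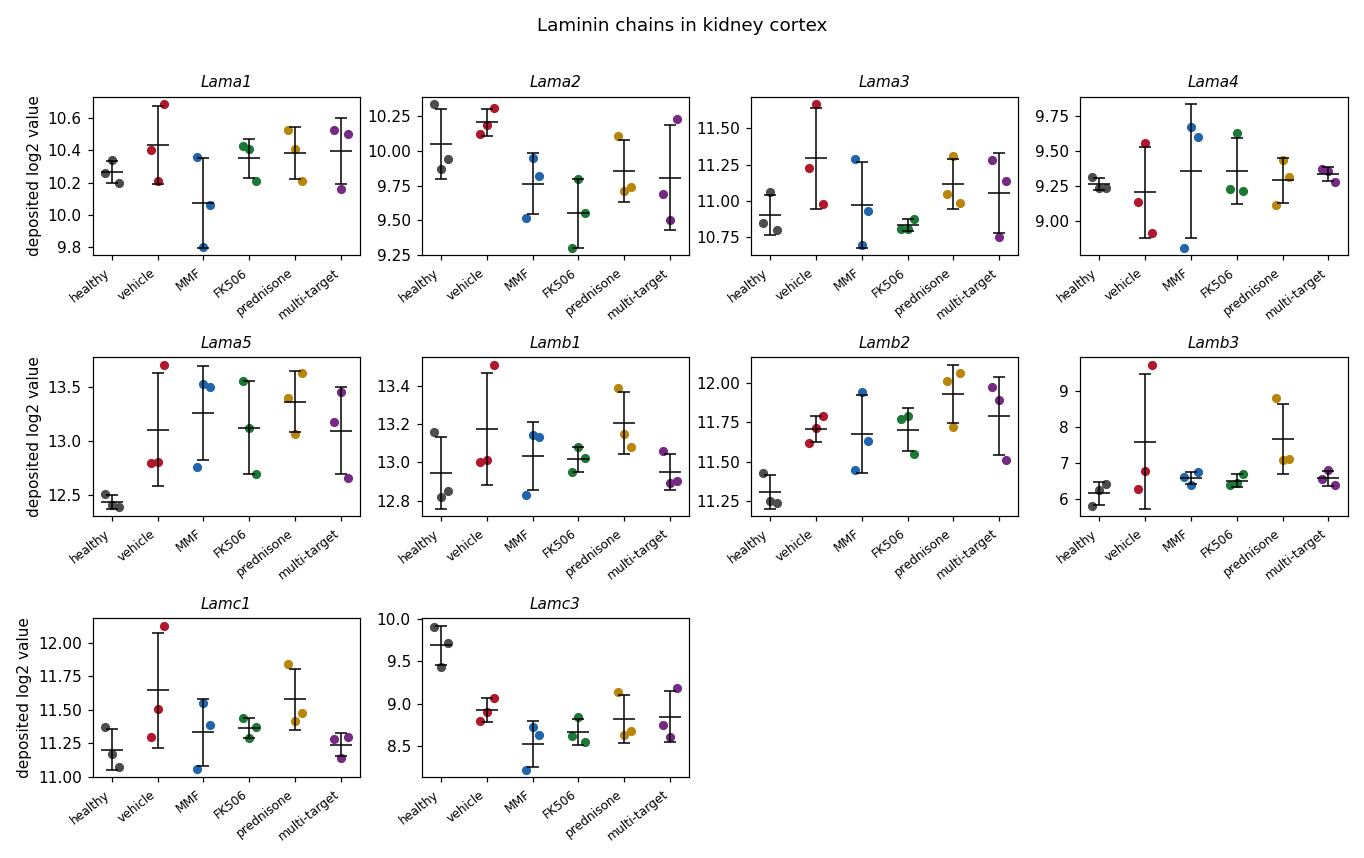
Deposited log2 values (y axis) of 10 laminin chains in each mouse (points), by group (x axis), with mean and SD (n = 3). Lamc3 is lower in all 15 Mrl/lpr mice (at most 9.18) than in the healthy mice (at least 9.44), and Lamb3 has 2 high libraries, vehicle mouse 36 at 9.74 and prednisone mouse 23 at 8.80.

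Genes that work with these receptors were read in the same comparison. Of 25 activators and adaptors, 7 rose and 2 fell, where 15.7% of all rows rose and 6.76% fell. The 3 with the smallest p act in blood cells: Fyb rose by 2.92 ± 0.38 on the log2 scale (limma adjusted p = 0.000144), Fermt3, the kindlin that activates integrins in leukocytes and platelets, by 1.97 ± 0.26 (limma adjusted p = 0.000158), and Apbb1ip, which links Rap1 to talin, by 2.21 ± 0.34 (limma adjusted p = 0.000455). Those that fell were Tln2, a talin (-0.98), and Lims2, of the complex with integrin-linked kinase (-0.46).

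Ligands on cells and in matrix rose in 4 of 15 measured cases and fell in 0, to be read against the same shares of all rows. Vcam1, the ligand of the Itga4 receptors, rose by 3.24 ± 0.79 (limma adjusted p = 0.0103), and Icam1, the ligand of the Itgb2 receptors, by 1.84 ± 0.36 (limma adjusted p = 0.00242). Vcam1 is also among the 6 tubular injury markers, so these lists share that row. Tnc, a matrix glycoprotein of repair, rose by 1.86 ± 0.56 (limma adjusted p = 0.0286), and Jam2, a junction protein, by 0.65. The ligands averaged 0.62, 0.58 and 1.79 above the healthy mean in vehicle mice 7, 17 and 36. Of 16 basement membrane partners of laminins, 2 rose and 1 fell, near the 22.4% of all rows called, and they averaged 0.14, 0.15 and 0.86 above the healthy mean in the same mice. Col4a4, of the collagen network of the mature glomerular membrane, fell by 0.59 (limma adjusted p = 0.0164), while Col4a2 and Col4a6 rose by 0.92 and 0.46 (limma adjusted p = 0.0489 and 0.0488).

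Treated Mrl/lpr mice were compared with vehicle-treated ones to see how far each drug moved these genes. The 4 comparisons share the same 3 vehicle mice. In the MMF arm 3 of the 41 members fell and 0 rose, all 3 of them leukocyte integrins, while 1.58% of all rows were called, 1.45% lower. Itgb2 was at 9.83, 8.89 and 8.32 in MMF mice 1, 14 and 27, all below the vehicle mice. Its log2 difference from vehicle was -2.04 ± 0.43 (limma adjusted p = 0.0459), to 0.24 of the vehicle level. Itgal was at 9.54, 9.17 and 9.14, all below the vehicle mice, with a difference of -1.17 ± 0.21 (limma adjusted p = 0.0429). Itga4 was at 9.87, 10.09 and 9.98, with a difference of -0.76 ± 0.15 (limma adjusted p = 0.0429).

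For all 9 leukocyte integrins the 3 MMF mice lay below the 3 vehicle mice without overlap, where 12.4% of all rows did so. The median of the 9 was -1.17, that of the 18 other integrins -0.44, that of the laminins -0.31 and that of all rows -0.05. Of the 18 and the 11, 0 and 0 passed (limma), with 8 and 2 at an unadjusted p under 0.05, as were 4491 of the 15035 rows. Itgam differed by -1.46 (limma adjusted p = 0.0519) and Itgax by -1.89 (limma adjusted p = 0.0524). Fyb, Apbb1ip and Fermt3 fell as well, by 1.79, 1.60 and 1.29 (limma adjusted p = 0.0459 each), and so did Nid1, the nidogen that ties laminin to collagen IV, by 1.20 (limma adjusted p = 0.0486). The summed log2 level of the pan-leukocyte markers was 10.88 to 12.37 in MMF mice against 12.86 to 13.77 in vehicle mice, with 3 of 4 called lower. Called lower were also 2 of 6 measured macrophage markers, while 0 of 7 T cell, 0 of 4 B and plasma cell and 0 of 4 neutrophil markers passed. Neutrophil markers averaged 2.68 above the healthy mean in MMF mice and 2.16 in vehicle mice, and B and plasma cell markers 1.47 and 1.79. The part of these markers in the integrin differences was not tested. Leaving out MMF mouse 14, MMF mouse 27, or mouse 17 or 36 of the vehicle group left 0 calls in each case, whereas 15 passed without MMF mouse 1 and 11 without vehicle mouse 7, and 0 passed when only these 2 groups were fitted.

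In the FK506 arm 0 of 41 members and 0.0% of all rows passed (limma), with 14 members and 2987 of all rows at an unadjusted p under 0.05. All 9 leukocyte integrins lay below vehicle on average, with a median of -0.84, and 6 of them without overlap between the groups, against 12.2% of all rows. The 4 pan-leukocyte markers averaged 1.81 above the healthy mean in FK506 mice and 3.01 in vehicle mice, with a summed log2 level of 11.85 to 12.35 against 12.86 to 13.77 and no overlap for any of the 4, and their part was not tested. Itgb2 was at 9.45, 9.96 and 10.05 in FK506 mice 3, 12 and 24, all under the lowest vehicle mouse (-1.23, limma adjusted p = 0.177). The FK506 mice were close to each other, with means of the 9 leukocyte integrins of 0.73, 0.80 and 0.81 above the healthy mean. Among the other integrins Itga8, the mesangial receptor for nephronectin, was at 8.46, 8.46 and 8.48 in FK506 mice against 9.08, 9.37 and 9.36 in vehicle mice (-0.80, limma adjusted p = 0.171).

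In the prednisone arm 0 of 41 members passed against vehicle, 0.0% of all rows did, and 0 members and 474 rows had an unadjusted p under 0.05 (limma). The median of the leukocyte integrins was -0.44, and 0 of the 9 lay below vehicle without overlap, against 1.3% of all rows. Itgb2 was at 11.36 in prednisone mouse 23, above every vehicle mouse, and at 10.18 and 9.87 in mice 29 and 35, below every vehicle mouse (-0.58, limma adjusted p = 0.943). The laminins had a median of 0.03.

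In the multi-target arm 0 of 41 members and 0.0% of all rows passed against vehicle, with 10 members and 2341 rows at an unadjusted p under 0.05 (limma). The leukocyte integrins had a median of -1.11, and 7 of the 9 were free of overlap, against 9.54% of all rows that lay lower without overlap. The 4 pan-leukocyte markers, at a mean of 1.46 above healthy and a summed log2 level of 11.20 to 12.28, were also all below vehicle without overlap, and their part was not tested. Itgb2 was at 9.33, 8.49 and 9.89 in multi-target mice 6, 18 and 39, all below the vehicle mice. Its difference was -1.81 ± 0.43 (limma adjusted p = 0.163). Itgal differed by -1.17 and Itga4 by -0.86 (limma adjusted p = 0.161 each). Apbb1ip, Fyb, Fermt3 and Nid1 differed by -1.44, -1.62, -0.96 and -0.96 (limma adjusted p = 0.163, 0.163, 0.169 and 0.177). The medians of the 18 other integrins and of the laminins were -0.28 and -0.22.

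The mean of the 9 leukocyte integrins stood 1.57 ± 0.31 above the healthy mean in vehicle mice (SD, n = 3), 0.45 ± 0.30 in MMF mice, 0.78 ± 0.04 in FK506 mice, 1.19 ± 0.43 in prednisone mice and 0.59 ± 0.36 in multi-target mice. The order from MMF through multi-target to FK506 was within the spread of the mice. The laminins averaged 0.06, 0.24 and 0.76 above the healthy mean in vehicle mice 7, 17 and 36.

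**Figure D5:**
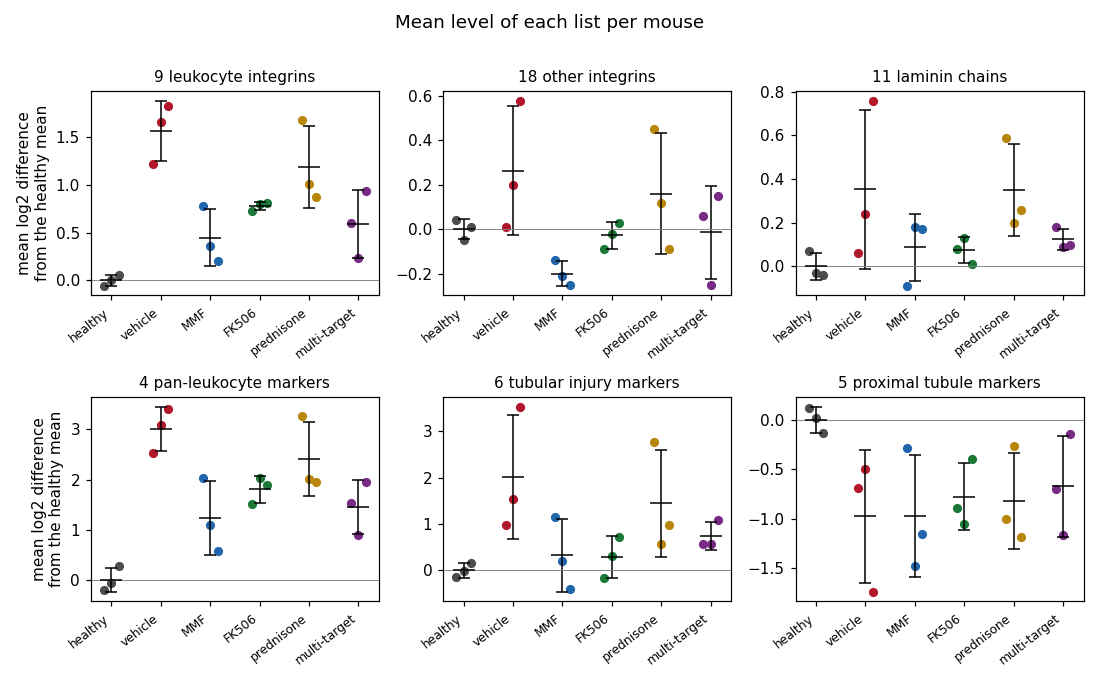
Mean log2 difference from the healthy mean (y axis) over 3 sets of members and 3 sets of markers, per mouse (points) and group (x axis), with mean and SD (n = 3). Leukocyte integrins run from 1.22 to 1.83 in vehicle mice and from 0.20 to 0.78 in MMF mice. The pan-leukocyte markers run from 2.53 to 3.41 and from 0.57 to 2.03 in the same mice.

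The multi-target arm was compared with each single drug to see whether the combination differed from its comparators. None of the 41 members passed in any of the 3 comparisons, and 0.0% of all rows did. At an unadjusted p under 0.05 there were 2 members (of 1126 rows) against MMF, 0 (of 61) against FK506 and 5 (of 503) against prednisone. The median of the leukocyte integrins was 0.20 against MMF, -0.18 against FK506 and -0.66 against prednisone.

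Each treated arm was also compared with the 3 healthy mice, which the 4 comparisons share. In the MMF arm 4 of 41 members passed (15.9% of all rows), in the FK506 arm 5 (7.27%), in the prednisone arm 9 (16.7%) and in the multi-target arm 4 (6.98%). With quantile normalization the share of higher rows among all calls went from 60.0% to 47.0%, from 78.8% to 53.4%, from 80.3% to 46.7% and from 76.4% to 50.5% in these arms. Itgb2, Itga4 and Lamc3 passed in all 4. Itgb2 was higher by 1.38 in MMF, 2.19 in FK506, 2.84 in prednisone and 1.61 in multi-target mice (limma adjusted p = 0.0435, 0.00962, 0.00092 and 0.0393). Itga4 was higher by 0.70, 0.77, 1.17 and 0.60 (limma adjusted p = 0.00954, 0.00752, 0.000202 and 0.027). Lamc3 was lower, with differences of -1.17, -1.03, -0.88 and -0.85 (limma adjusted p = 0.00262, 0.00656, 0.00727 and 0.0177). With quantile normalization Lamc3 passed in all 4 arms, but Itgb2 did not pass in the MMF and multi-target arms (limma adjusted p = 0.0587 and 0.0667), nor Itga4 in the multi-target arm (limma adjusted p = 0.0632). The same 3 calls were lost without any 1 healthy mouse. Itga4 in the multi-target arm also lost its call without multi-target mouse 6, 18 or 39 (limma adjusted p = 0.0929, 0.0538 and 0.0544). Itgb2 lost its call there without multi-target mouse 6 or 39 (limma adjusted p = 0.118 and 0.0947). In the MMF arm Itgb2 did not pass without MMF mouse 1 or 14 (limma adjusted p = 0.0905 and 0.115). In the multi-target arm Lamc3 did not pass without healthy mouse 1 or 3 (limma adjusted p = 0.0938 and 0.0653). Nor did it without multi-target mouse 6 or 18 (limma adjusted p = 0.0725 and 0.0879). In the FK506 arm Itgb2 did not pass without healthy mouse 1 or FK506 mouse 12 (limma adjusted p = 0.0529 and 0.0509).

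Beyond these, single arms had further calls against healthy mice. In the MMF arm Itgb8 was at 10.01, 10.82 and 10.90, lower by 1.43 on average (-1.43 ± 0.35, limma adjusted p = 0.0192). This call was lost without any 1 healthy mouse or without MMF mouse 14. In the FK506 arm Itgal was higher by 0.86 and Itga8 differed by -0.98 ± 0.26 (limma adjusted p = 0.0267 and 0.0381). Both calls were lost without any 1 mouse of the FK506 or healthy group, and that of Itgal also with quantile normalization (limma adjusted p = 0.0634). In the prednisone arm Lama5 was higher by 0.93 ± 0.29 and Lamb2 by 0.62 ± 0.14 (limma adjusted p = 0.0407 and 0.011), with Lamb2 at 12.01, 11.72 and 12.06. Podocyte markers were higher in the same mice, where 3 of 5 were called. All 5 lay above healthy mice without overlap, as did 5548 of the 15035 rows. Their mean was 0.43 to 0.84 above the healthy mean, with a summed log2 level of 14.43 to 14.87 against 13.84 to 14.03. This was not particular to prednisone. In multi-target mice all 5 were also free of overlap, with a mean of 0.49 to 0.86. Lama5 and Lamb2 were higher there by 0.66 and 0.48 without passing (limma adjusted p = 0.171 and 0.0568). In MMF, FK506 and vehicle mice Lama5 was higher by 0.83, 0.69 and 0.67, and Lamb2 by 0.36, 0.39 and 0.39, also without passing. Podocyte markers averaged 0.37, 0.28 and 0.32 above the healthy mean in those groups. The part of the podocyte markers in the laminin values was not tested. Itgal, Itgam, Itgb7 and Itga5 were also higher in the prednisone arm, by 1.26, 1.73, 1.56 and 1.10. Without prednisone mouse 23 these differences were 1.11, 1.22, 1.15 and 0.74, and those of Lama5 and Lamb2 were 0.91 and 0.57. Itgb1bp1 was higher in the multi-target arm, by 0.47 (limma adjusted p = 0.0433). It did not pass without any 1 mouse of the multi-target or healthy group, or with quantile normalization (limma adjusted p = 0.126). Without prednisone mouse 23, 5 members passed in the prednisone arm, and 6 without prednisone mouse 35 or healthy mouse 1. Without healthy mouse 2 or 3 there were 7, and without prednisone mouse 29 there were 13. In the multi-target arm 0 passed without healthy mouse 1, healthy mouse 3 or multi-target mouse 6, and 1 without healthy mouse 2 or multi-target mouse 18. In the MMF arm 2 passed without any 1 healthy mouse or without MMF mouse 14, and 8 without MMF mouse 1. In the FK506 arm leaving out any 1 mouse left 2 or 3.

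Over all 15 Mrl/lpr mice, whatever their treatment, 7 members stood above all 3 healthy mice in every mouse and 2 stood below, against 13.3% and 6.66% of all rows. Among the 7 were Itgal, Itgam, Itga4, Itgb2, Lama5 and Lamb2. Lama5 ran from 12.66 to 13.71 (median 13.18) in Mrl/lpr mice, above the 12.39 to 12.51 of healthy mice. Itgb8, from 10.01 to 11.76, and Lamc3, from 8.21 to 9.18, stood below. The remaining 32 members overlapped.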

How the data were processed

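RNA of frozen kidney cortex was purified on columns and 1 ug of total RNA went into TruSeq libraries, per the labels' protocols. The authors deposited 1 log2 expression value per gene symbol and library, and the submitters' processing notes name limma and mm10; which aligner, counter and annotation they used is not given in the sources used here. Of the 15035 rows, 74.35% are whole reads (tolerance 0.001) times a factor per library, and 9.99% are geometric means of 2 such rows. Among the members 32 are single rows, 5 (Itga9, Itgae, Itgam, Itgb4 and Lamb3) are means of 2, which lowers their level per length, and 4 could not be resolved.

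With limma 3.58.1 in R 4.3.3, 1 mean per group was fitted to the unfiltered deposited values of the 18 libraries together (12 residual degrees of freedom, prior variance depending on the mean, 2-sided tests), and the procedure was tested on simulated data. Each of 12 comparisons was adjusted over all rows at 0.05. Gene coordinates and exon lengths are those of GENCODE M21 (GRCm38). Spreadsheet dates replaced the symbols of 23 rows.

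The members, role groups, partner lists and markers were chosen with earlier results of these data known. Values per mouse are given, in each role group, for up to 3 called members with the largest difference in disease and in each drug comparison, and always for Itgb1, Itgb2, Lama5, Lamb2 and Lamc1; from partner lists, up to 3 members with the smallest p in the disease and multi-target comparisons. Other members were named after their values were seen. Alternatives were quantile normalization, leaving out the lowest 25% of genes, only the groups compared, array weights, leaving out the libraries with other tissue, and leaving out each mouse. A result on 1 further member is not reported here.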

Additional observations from a re-analysis of the deposited data

How the results depend on the processing

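No paired analysis was possible because no groups compared share more than 1 mouse number, and the numbers mark no litter, batch or day in the labels. The disease calls of Itgb2, Itgam, Itgal, Itga4 and Itgb7 stood in every alternative run for them, and those of Itgax and Lamc3 in 10 of 11. The count of called members, 15 in the disease comparison, was 9 with quantile normalization, 23 with array weights and between 6 (without vehicle mouse 36) and 19 with 1 mouse left out, 7, 7 and 8 without healthy mice 1, 2 and 3. For MMF against vehicle, 3, it was 0 with quantile normalization, 0 with only the 2 groups fitted, 0 without vehicle mouse 17 and FK506 mouse 12, 18 with array weights, and 0 to 15 with 1 mouse left out. Array weights also gave 8 calls for FK506 against vehicle, 10 for multi-target against vehicle, 15 for multi-target against MMF, 4 for multi-target against FK506, and 18, 25, 21 and 25 for MMF, FK506, prednisone and multi-target against healthy; these weights ran from 0.095 (MMF mouse 1) to 26.581 (multi-target mouse 6), and their estimation stopped before reaching its tolerance. With 1 mouse left out, multi-target had 0 to 2 calls against vehicle and 0 to 3 against MMF, and the arms had 2 to 8 (MMF), 2 to 3 (FK506), 5 to 13 (prednisone) and 0 to 4 (multi-target) against healthy. With only the 2 groups fitted, FK506, prednisone and multi-target had 14, 15 and 13 against healthy; without vehicle mouse 17 and FK506 mouse 12, FK506 and multi-target had 2 and 2, and with quantile normalization multi-target had 1. The cause of these changes was not tested.

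Small differences that had not passed changed sign. In the disease comparison these were Itgb2l (-0.11), Itga10 (-0.08), Itga6 (0.05) and Lama2 (-0.02) with quantile normalization, Itgav (-0.05), Itga1 (-0.02) and Lama4 (0.12) with array weights, Itgav (-0.15), Itga1 (-0.04) and Lama4 (0.08) without vehicle mouse 36, Itga1 (-0.01) without healthy mouse 3, and Itga6 (0.09) without vehicle mouse 17, alone or with FK506 mouse 12 (0.09). Against vehicle these were Itgb2l for FK506 (0.06 with quantile normalization, 0.03 without vehicle mouse 36, 0.07 without FK506 mouse 24), Itgam for prednisone (0.02 without prednisone mouse 35), Itgad for multi-target (0.07 with quantile normalization, 0.01 without vehicle mouse 7) and Itgb2l for multi-target (0.14 with quantile normalization, 0.05 with array weights, 0.09 without vehicle mouse 36, 0.00 without multi-target mouse 6, 0.13 without multi-target mouse 18). With 1 mouse left out in turn, the widest values opposite to these were 0.33 for Itgav (without vehicle mouse 7), -0.19 for Itga6 (without vehicle mouse 36) and -0.23 for Lama4 (without vehicle mouse 17) in disease, -0.22 for Itgb2l in FK506 (without FK506 mouse 3) and -0.83 for Itgam in prednisone (without prednisone mouse 23). Counting error weighs most on the members with the fewest reads (Itgbl1, Lamb3 and Itgb2l), and the share of depth in what could be called was not tested.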
